A study of Mus musculus with 272 samples.

Results

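The genes described here are 9 that write, copy, remove or shield DNA methylation in mouse: the maintenance pair Dnmt1 and Uhrf1, the de novo group Dnmt3a, Dnmt3b and Dnmt3l, the oxidases Tet1, Tet2 and Tet3, and the protector Dppa3. They were chosen by name as listed rows of the deposited expression table, and all 9 were present among its 15854 gene symbols. The study fractionated ribosomes on sucrose gradients and sequenced the RNA of each fraction, beside transcriptomes of the same stages. The 8 stages were the germinal vesicle (GV) oocyte, arrested before meiotic division, the metaphase II (MII) oocyte, which is the mature egg, the zygote, the 2-cell, 4-cell and 8-cell embryo, the morula and the blastocyst. Each stage had 4 transcriptome libraries from pools of 20 oocytes or embryos and 3 gradients of about 100, each cut into 10 fractions, so that 32 transcriptome and 240 fraction libraries were used. The labels give stage and library kind, with no strain, age or genetic change, and every group is untreated apart from cycloheximide in the lysate, which holds ribosomes on their transcripts. The labels do not say that replicates came from separate animals, so p-values measure the spread between these pools and gradients, which may be technical.

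Methylation of cytosine in CpG pairs is copied after replication by Dnmt1, which Uhrf1 brings to half-methylated DNA, and is set on unmethylated DNA by Dnmt3a and Dnmt3b, with Dnmt3l as a cofactor that has no catalytic activity of its own. In growing oocytes Dnmt3a with Dnmt3l lays down the maternal pattern. After fertilization methylation falls genome-wide, in part because Tet3 oxidizes methylated cytosine, while Dppa3 (also called Stella or PGC7) shields the maternal genome and restrains Uhrf1. Around implantation Dnmt3b and Dnmt3a set new patterns.

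Transcriptome libraries held 11.2 to 24.3 M reads (median 17.6) and fraction libraries 0.0102 to 43.2 M (median 18.6). The 11 libraries under 0.5 M reads were all fraction 1, the top of the gradient, from GV oocytes and 2-cell, 4-cell, 8-cell and morula stages. Values are CPM, reads per 1 M reads of a library, so a level is relative to the other RNA in the same library. In bulk pools, fewer cells with a transcript and less RNA per cell cannot be told apart. The stages carried their defining markers: 5 oocyte markers summed to 14112 to 15941 CPM in GV transcriptomes and 4.48 to 11.3 in blastocysts, 5 markers of the 2-cell embryo to 2078 to 2813 in 2-cell embryos, and the 6 blastocyst markers in the table to 2334 to 2836 in blastocysts. Of 8 markers of cumulus and granulosa cells, which surround the oocyte, 3 were in the table. They summed to 39.4 to 68.9 CPM in GV and MII oocytes, 48.1 to 60.0 in zygotes, 5.60 to 12.9 in 2-cell embryos and at most 0.227 from the 4-cell stage. Their part in the changes of Dnmt1, Uhrf1, Tet3 or Dnmt3l was not tested.

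In maturing oocytes, stored transcripts whose 3' end carries a cytoplasmic polyadenylation element (CPE) can gain poly(A) tail and enter translation, so the ends of the members' transcripts are shown before their gradient positions. The last 100 bases of the annotated transcript (GENCODE M21, GRCm38) were searched on the transcript strand for TTTTAT or TTTTAAT and for the polyadenylation signal AATAAA or ATTAAA. Of the 9 members, 5 held the CPE letters (Dnmt1, Dnmt3a, Tet1, Tet2 and Tet3), against 18.9% of 12844 genes, and 7 held the signal, against 80% of genes. The ends of the 4 members with a call of heavy against light, and of Dnmt3a, which fell on the heavy side, are printed as windows of 30 bases, with the CPE letters or, where there were none, the signal in capitals.
Dnmt1 (chromosome 9, minus strand, transcript end 20907209): gacttgatgtagTTTTATatgttgtaatat
Dnmt3a (chromosome 12, plus strand, transcript end 3914443): tgtttatatataTTTTATtttcgctataaa
Tet3 (chromosome 6, minus strand, transcript end 83362373): atattgtgggtgTTTTAATaaattttatat
Dppa3 (chromosome 6, plus strand, transcript end 122630272): ccagaaatttgtAATAAAagcatttttgtt
Uhrf1 (chromosome 17, plus strand, transcript end 56323486): atattgcaataaAATAAAattctggccggg
Tet3 held 2 matches to the CPE letters. The one in capitals, TTTTAAT, overlaps the signal, and the other, TTTTAT, follows the signal in the same window in lower case. Dppa3 and Uhrf1 held the signal without CPE letters in this window, and Dnmt3l held neither. A match is a description of letters, and the files give expression per gene on GRCm39 with no transcript ends.

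In the transcriptomes the oocyte-stored genes Dnmt1, Uhrf1 and Tet3 ended low at the 4-cell to morula stages, while Tet1 and Dnmt3b rose into the 4-cell stage, and Dnmt3b and Tet2 into the morula. Changes between consecutive stages were tested on the log2(CPM + 1) scale in 1 limma fit over all 32 libraries and 14642 genes, and a change was called when it reached a size of 1 with a Benjamini-Hochberg adjusted p below 0.05. From GV to MII, 1 of the 9 members rose and 1 fell, where 34.5% of all genes were called. From MII to zygote 1 fell (10.3% of genes called), and from zygote to 2-cell 1 rose and 2 fell (33.9%). From 2-cell to 4-cell 2 rose and 2 fell, a share of members below the 64.8% of genes called there. Between 4-cell and 8-cell none was called by limma, edgeR or DESeq2, with 4 at an unadjusted p under 0.05 in limma and 2.6% of genes called. Among the 4, Dnmt1 at -0.55 and Dppa3 at -0.60 passed the adjusted threshold (limma adjusted p = 0.0405 and 0.0328) but not the size for a call. From 8-cell to morula 2 rose (11.9%), and from morula to blastocyst 6 rose and 1 fell (26.8%). In that last step the members' median change was 1.34, against 0.16 over all genes tested. In each of the 19 called changes the groups did not overlap, which the thresholds of a call favour, so this is no separate support.

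Dnmt1 was highest in oocytes. Its level was 1011, 928, 851 and 920 CPM in the 4 GV libraries and 1465, 1435, 805 and 1132 in the 4 MII libraries. It was 356, 358, 358 and 377 in zygotes and 33.9, 25.3, 30.5 and 32.7 in 2-cell embryos. The GV and MII libraries overlapped, while every zygote was below every oocyte library and every 2-cell embryo below every zygote. Dnmt1 fell by 1.70 ± 0.175 (SE) from MII to zygote (limma, Benjamini-Hochberg adjusted p = 1.82e-09) and by 3.53 ± 0.175 from zygote to 2-cell (adjusted p = 7.51e-19, limma). It then had means of 24.9 to 38.4 CPM from the 2-cell stage to the morula, where neighbouring stages overlapped apart from the 4-cell and 8-cell embryo. In blastocysts it was 76.7, 52.9, 71.4 and 58.3 CPM, all above the morula libraries at 35.2, 25.9, 18.5 and 19.8, and rose by 1.38 ± 0.175 (limma adjusted p = 4.66e-08). The gene has several annotated start sites, including the oocyte start, and values per gene do not separate them.

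Uhrf1, the partner of Dnmt1, lost its level 1 division later. It was 162 ± 8.16 CPM (SD, n = 4) in GV oocytes, 205 ± 39.4 in MII oocytes and 112 ± 12.5 in zygotes. In 2-cell embryos it was 70.8, 45.4, 55.3 and 59.6 CPM, and in 4-cell embryos 5.78, 4.94, 4.18 and 8.45. All 4-cell libraries were below all 2-cell libraries, and Uhrf1 fell by 3.12 ± 0.235 (limma adjusted p = 1.81e-14). The step before, from zygote to 2-cell, also separated the groups, with a difference of -0.95 ± 0.235 that stayed under the size needed for a call. It reached that size, at -1.28 and -1.35, in edgeR and DESeq2. Levels in 8-cell embryos (1.94, 8.59, 5.26 and 5.60 CPM) and morulae (3.34, 5.55, 4.83 and 6.25) overlapped with those of 4-cell embryos. In blastocysts Uhrf1 was 112, 70.3, 86.5 and 81.8 CPM, and rose by 3.89 ± 0.235, the largest change of any member between consecutive transcriptome stages (limma adjusted p = 1.54e-15).

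**Figure D1:**
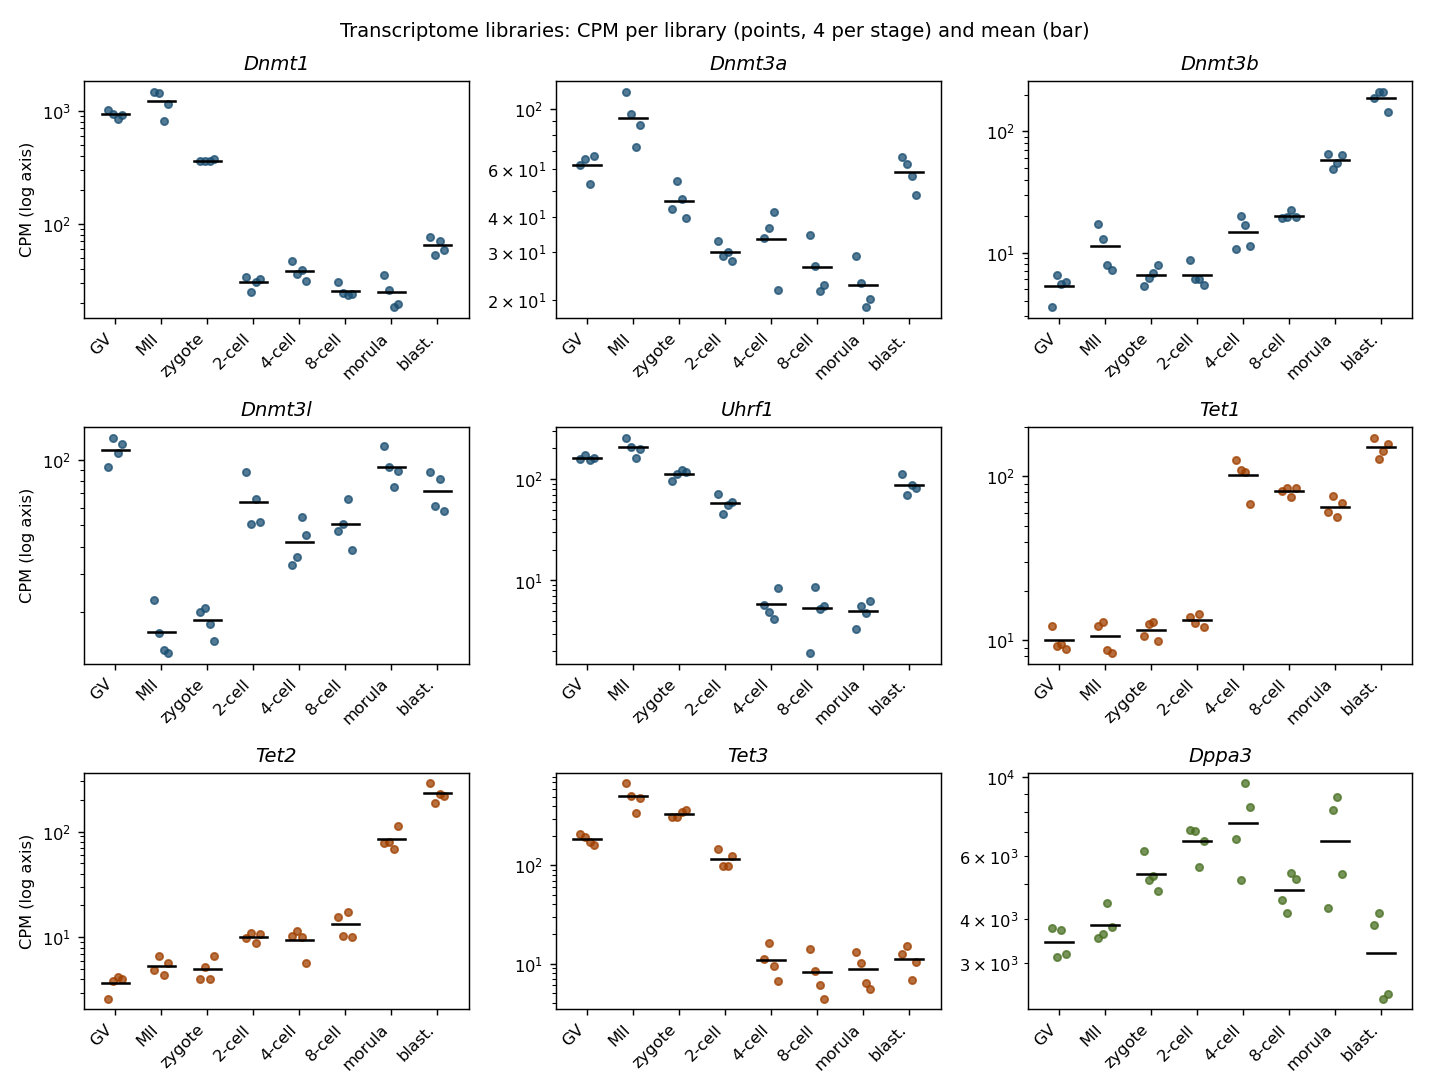
CPM of each of the 9 genes (log axis, 1 panel per gene) in the 4 transcriptome libraries of each stage (points) with their mean (bar). Dnmt1 drops between MII oocytes and 2-cell embryos, Uhrf1 and Tet3 between the 2-cell and 4-cell stage, and Dnmt3b and Tet2 climb from the 8-cell stage to means of 189 and 229 CPM in blastocysts, while Dppa3 stays between 2384 and 9609 CPM in all 32 libraries.

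Among the de novo genes, Dnmt3l had the sharpest change at maturation. It was 92.8, 126, 107 and 117 CPM in GV oocytes and 22.7, 16.1, 13.5 and 13 in MII oocytes. No MII library reached the lowest GV library, and Dnmt3l fell by 2.71 ± 0.2 (limma adjusted p = 3.6e-14). It was 20.0, 20.9, 17.7 and 14.8 CPM in zygotes and 87.6, 50.8, 65.7 and 51.6 in 2-cell embryos, all of them above the zygotes, and rose by 1.72 ± 0.2 (limma adjusted p = 3.38e-09). From then on its means were 42.1 to 92.9 CPM with no further call. All morulae were above all 8-cell embryos, with a difference of 0.87 ± 0.2 (limma adjusted p = 0.000999) that stayed under the size for a call. Without the libraries lettered C it was 1.10 and was called (limma adjusted p = 0.000724). Counts of Dnmt3l may be shared with its processed copy Dnmt3l-ps1.

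Dnmt3a, the main de novo enzyme of the oocyte, varied least among the 3. Its means were 61.9 ± 6.27 CPM (SD, n = 4) in GV oocytes, 92.6 ± 17.8 in MII oocytes, 46.0 ± 6.32 in zygotes and 29.8 ± 2.13 in 2-cell embryos. The differences between these stages separated the groups but were each under 1 on the log2 scale, at 0.56, -0.98 and -0.60. DESeq2 placed the first and the last of these just past the size for a call, at 1.01 and -1.01. In morulae Dnmt3a was 28.9, 23.0, 18.8 and 20.1 CPM and in blastocysts 66.5, 62.5, 56.8 and 48.4. The blastocysts were all higher, and Dnmt3a rose by 1.34 ± 0.18 (limma adjusted p = 1.38e-07). The antisense gene Dnmt3aos overlaps it, and since the strand setting of the counting is not given in the sources used here, their reads cannot be told apart.

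Dnmt3b, the enzyme that is later the main de novo methyltransferase of the implanting embryo, began low. It was 3.55 to 17 CPM in all 16 libraries up to the 2-cell stage. Its difference of 0.90 ± 0.221 from GV to MII stayed under the size for a call in limma and reached it in edgeR and DESeq2, at 1.38 and 1.49. In 2-cell embryos it was 8.60, 6.05, 6.01 and 5.38 CPM, and in 4-cell embryos 10.6, 20.2, 16.7 and 11.4. The groups did not overlap, and Dnmt3b rose by 1.04 ± 0.221 (limma adjusted p = 6.34e-05). This call was at the edge of the size needed: the change was 0.88 without the libraries lettered B, 0.97 without those lettered C or without the 2-cell library H, and 0.93 in DESeq2. The next increases were larger: 8-cell embryos had 19.3, 19.5, 22.3 and 19.6 CPM, morulae 65.1, 48.8, 54.8 and 63.6, and blastocysts 188, 212, 210 and 145. These 3 groups did not overlap, and Dnmt3b rose by 1.47 ± 0.221 into the morula (limma adjusted p = 3.99e-06) and by 1.68 ± 0.221 into the blastocyst (limma adjusted p = 8.31e-08). The neighbouring, nearly identical Dnmt3c and the antisense gene Dnmt3bos could share its reads.

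The 3 Tet genes followed different courses. Tet3, the oxidase stored in the egg, was 208, 196, 171 and 160 CPM in GV oocytes and 684, 513, 340 and 483 in MII oocytes. All MII libraries were above all GV libraries, and Tet3 rose by 1.42 ± 0.267 (limma adjusted p = 2.34e-05). It was the 1 member that limma called higher in MII than in GV oocytes. Poly(A) tail length was not measured, and its part in the changes of Tet3 and Dnmt3l from GV to MII was not tested. Tet3 was 314, 312, 354 and 363 CPM in zygotes and 146, 98.5, 99.6 and 124 in 2-cell embryos. In 4-cell embryos it was 11.1, 16.3, 9.43 and 6.58 CPM. These groups were separate at each step, and Tet3 fell by 1.53 ± 0.267 from zygote to 2-cell (limma adjusted p = 7.82e-06). From 2-cell to 4-cell it fell by 3.36 ± 0.267 (limma adjusted p = 8.16e-14). Afterwards its means were 8.2 to 11.2 CPM, with overlapping groups.

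Tet1 went the other way at the same step. It was 8.4 to 14.6 CPM in the 16 libraries from GV to 2-cell. In 2-cell embryos it was 13.9, 12.8, 14.6 and 12 CPM and in 4-cell embryos 126, 109, 106 and 68.1. Every 4-cell library was above every earlier one, and Tet1 rose by 2.82 ± 0.169 (limma adjusted p = 3.34e-17). In blastocysts it was 172, 127, 143 and 157 CPM, above morulae at 60.5, 75.8, 56.6 and 68.5, and rose by 1.19 ± 0.169 (limma adjusted p = 4.06e-07). That second change was 0.93 in edgeR and 0.97 in DESeq2, under the size for a call.

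Tet2 came last. It was 2.63 to 17.4 CPM in the 24 libraries up to the 8-cell stage. In 8-cell embryos it was 15.6, 10.3, 17.4 and 9.98 CPM, in morulae 77.6, 79.2, 67.7 and 112, and in blastocysts 285, 188, 226 and 217. The 3 groups were separate, and Tet2 rose by 2.58 ± 0.212 into the morula (limma adjusted p = 7.6e-11) and by 1.44 ± 0.212 into the blastocyst (limma adjusted p = 6.42e-07).

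Dppa3, the maternal protector, was the most abundant member throughout. Its stage means lay between 3203 and 7431 CPM, and consecutive stages overlapped except from MII to zygote, from which it differed by 0.48 ± 0.183 (not called), and from morula to blastocyst. Morulae had 4293, 8071, 8806 and 5351 CPM and blastocysts 3836, 4142, 2384 and 2451. The blastocysts were all lower, and Dppa3 fell by 1.03 ± 0.183 (limma adjusted p = 1.35e-05). The change was -0.75 without the libraries lettered C and -0.59 after quantile normalization, neither of which was a call. A processed copy, Dppa3-ps, could share its reads.

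Levels of different genes were compared per kb of merged exons (GENCODE M21), since CPM favours long transcripts. Dppa3 stood first in every stage, at 3591 to 8331 CPM per kb. Dnmt1 was next in GV oocytes, MII oocytes and zygotes, at 126, 164 and 49.1 CPM per kb, above Uhrf1 at 38.0, 48 and 26.2. From the 2-cell stage to the morula the gene after Dppa3 was Dnmt3l, at 14.1 to 31.1 CPM per kb, separate from the next gene in all 4 stages. In blastocysts Dnmt3b at 37.0 ± 6.07 (SD, n = 4), Dnmt3l at 24.1 ± 4.87 and Uhrf1 at 20.6 ± 4.10 CPM per kb followed each other with overlapping libraries. The lowest gene was Tet2 up to the 4-cell stage, at 0.219 to 0.598 CPM per kb, and Tet3 from the 8-cell stage, at 0.491 to 0.672, although Tet2 and Tet3 overlapped at the 4-cell and 8-cell stages.

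The transcriptome pattern most like each member, by Pearson r of log2(CPM + 1) over the 32 libraries, is given as a description. Libraries of a stage share their stage, so these r follow from 8 stage levels and their spread. A gene with 1 of the 2 highest r was Pdcd7 for Dnmt1 (r = 0.968), Lurap1l for Uhrf1 (0.973), Lpcat1 for Dnmt3a (0.902), Ak4 for Dnmt3b (0.966) and Dgcr6 for Dnmt3l (0.934). It was Rrbp1 for Tet1 (0.982), Tfcp2l1 for Tet2 (0.979), Gm4981 for Tet3 (0.988) and Eif2a for Dppa3 (0.836). The other was Dipk1b for Dnmt1 (0.966), Slc15a2 for Uhrf1 (0.968), Slc12a9 for Dnmt3a (0.901), Atad3a for Dnmt3b (0.964) and Cops7a for Dnmt3l (0.933). It was Lrp2 for Tet2 (0.974), Slc45a3 for Tet3 (0.987) and Zfp534 for Dppa3 (0.795). Between members, the highest r was that of Dnmt3b with Tet2 (0.954) and the lowest that of Tet1 with Tet3 (-0.922).

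Because Dnmt3b and Tet2 had the highest r between members, the 250 bases upstream of their RefSeq starts are shown (GRCm38.p6, on the gene's strand), with the GC box GGGCGG or its complement CCGCCC in capitals. The GC box was searched on both strands, and 55.3% of 11663 genes held at least 1 in this window, where the median gene had 15 CpG pairs.
Dnmt3b (chr2:153649199-153649448, plus strand): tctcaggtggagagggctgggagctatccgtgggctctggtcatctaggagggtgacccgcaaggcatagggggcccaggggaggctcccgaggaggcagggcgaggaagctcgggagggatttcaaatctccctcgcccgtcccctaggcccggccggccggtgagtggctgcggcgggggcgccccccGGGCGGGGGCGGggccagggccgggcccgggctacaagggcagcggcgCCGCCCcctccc
Tet2 (chr3:133544391-133544640, minus strand): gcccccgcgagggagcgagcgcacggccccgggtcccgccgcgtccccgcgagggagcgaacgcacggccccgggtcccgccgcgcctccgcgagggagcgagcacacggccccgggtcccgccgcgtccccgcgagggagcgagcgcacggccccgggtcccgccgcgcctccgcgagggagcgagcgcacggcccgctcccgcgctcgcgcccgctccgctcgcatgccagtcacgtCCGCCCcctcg
The Dnmt3b window held 21 CpG pairs and 3 GC boxes, more CpG pairs than 71% of genes. The Tet2 window held 51 CpG pairs, more than 99.9% of genes, in a stretch that repeats itself, and 1 GC box.

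In the gradients a transcript that carries more ribosomes sediments further. Fractions carry a number but no name in the labels, so calling 6 to 10 the heavy, ribosome-bound side and 1 to 5 the light side is a convention. The CPM of each side was averaged within a gradient. Every fraction was scaled to its own total, so these means describe the place of a transcript relative to other transcripts, not amounts of RNA. The maternal transcripts Dnmt1, Uhrf1 and Tet3 were called light at the 4-cell stage, Tet3 also at the 8-cell stage and Dnmt1 also in morulae, while Dppa3 was called heavy in 2-cell and 8-cell embryos.

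**Figure D2:**
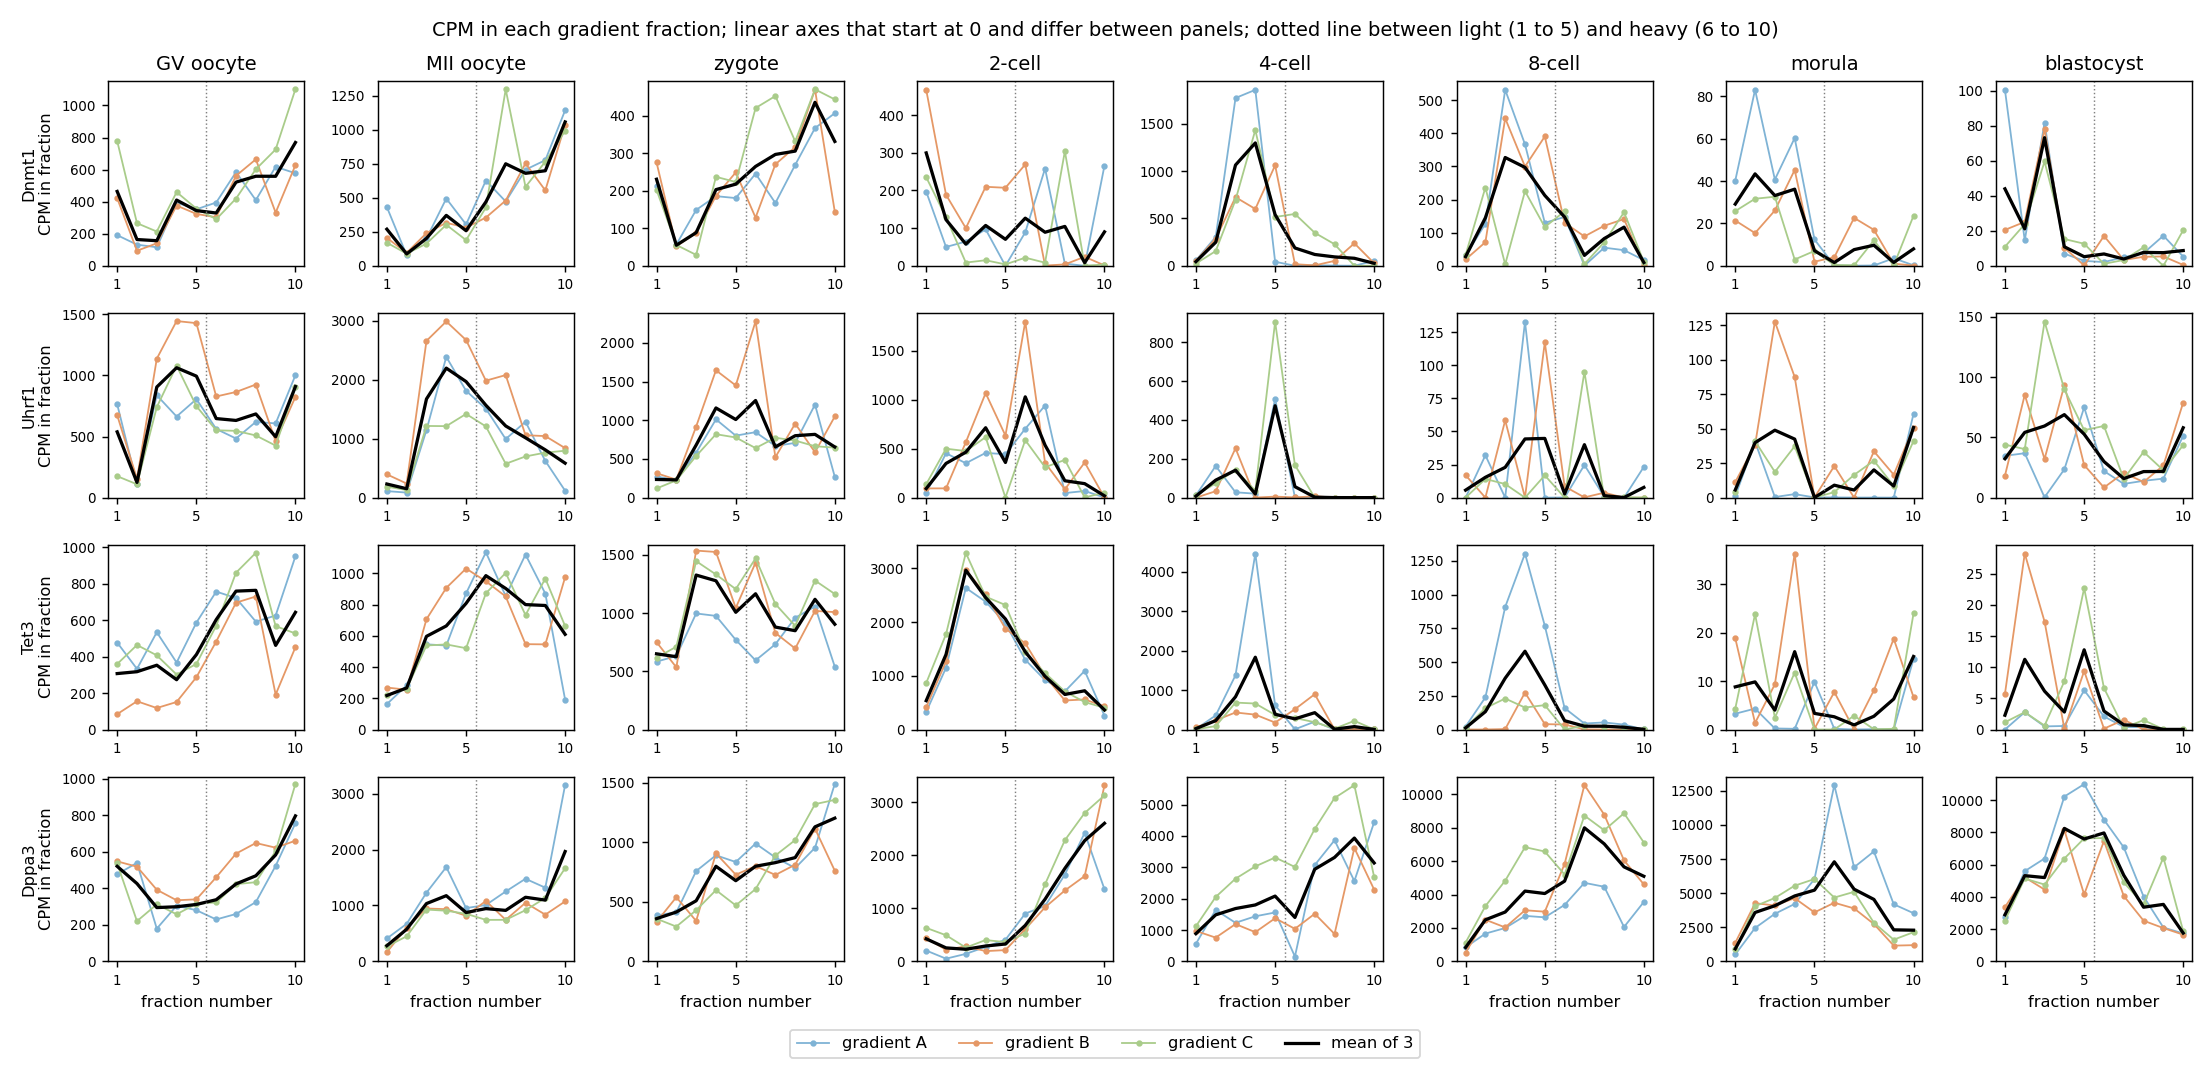
CPM of Dnmt1, Uhrf1, Tet3 and Dppa3 (rows) along fractions 1 to 10 at the 8 stages (columns), for gradients A, B and C and their mean (linear axes from 0 that differ between panels; the dotted line parts fractions 1 to 5 from 6 to 10). Dppa3 climbs towards fractions 9 and 10 in 2-cell embryos in all 3 gradients, where Tet3 peaks in fraction 3, and the single gradients part from each other most at the 4-cell stage.

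Within a stage, heavy and light sides were compared in 1 limma fit over 48 side means and 15172 genes. In GV oocytes, MII oocytes, zygotes and blastocysts none of the 9 members was called by limma or by edgeR, with 0, 1, 2 and 2 members at an unadjusted p under 0.05 in limma. The share of all genes called in these stages was 0.0725%, 3.23%, 3.01% and 2.74%. In 2-cell embryos 1 member was called heavy (18.2% of genes called), in 4-cell embryos 3 light (16.3%), in 8-cell embryos 1 heavy and 1 light (9.05%) and in morulae 1 light (5.81%). The members' median difference of heavy minus light was 0.49, 0.49 and 0.36 in GV oocytes, MII oocytes and zygotes, against 0.08, -0.06 and -0.04 over all genes, and -1.18, -1.34, -0.46 and -0.79 from the 4-cell stage to the blastocyst, against -0.26, 0, 0.00 and -0.02. All 8 stages shared 1 estimate of the spread, which is widest between 4-cell gradients. Fitted on the 6 side means of a stage alone, 2468 called genes at the 4-cell stage became 0, and 490 in MII oocytes became 2204.

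Dnmt1 sat on the heavy side in oocytes and zygotes and on the light side from the 4-cell stage, with a call in 4-cell embryos and morulae only. Its heavy and light means were 517 and 237, 497 and 271, and 628 and 415 CPM in GV gradients A, B and C, and 744 and 302, 635 and 227, and 812 and 182 in MII gradients. The heavy side was higher in 3 of 3 gradients in GV oocytes, MII oocytes and zygotes, and the 2 sides did not overlap. These differences, 0.86 ± 0.604, 1.64 ± 0.604 and 1.01 ± 0.604, did not pass (limma adjusted p = 1, 0.155 and 0.529). In the fit of each stage alone the last 2 passed (limma adjusted p = 0.00106 and 0.0132). In 2-cell embryos the gradients disagreed, with 60.3%, 20.3% and 46.3% of the summed fraction CPM on the heavy side.

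At the 4-cell stage the heavy means of Dnmt1 were 11.9, 67.4 and 225 CPM and its light means 806, 544 and 564. All light means were above all heavy means, and the difference was -3.43 ± 0.604 (limma adjusted p = 9.53e-05), which did not pass in the fit of the 4-cell stage alone (adjusted p = 0.207, limma). The largest mean was 1297 CPM in fraction 4, with 1857, 600 and 1433 in the 3 gradients. In morulae the heavy means were 0.824, 8.94 and 7.28 CPM against 47.4, 22.0 and 20.0 on the light side. The sides were separate, with a difference of -2.43 ± 0.604 (limma adjusted p = 0.00774). Without gradient A the morula difference was -1.28 (adjusted p = 0.265), without gradient B -3.04 (adjusted p = 0.0596) and in edgeR -2.03 (adjusted p = 0.106). In 8-cell embryos and blastocysts the sides were separate, but the differences of -1.345 ± 0.604 and -1.979 ± 0.604 did not pass (limma adjusted p = 0.189 and 0.0706). In the fit of the blastocysts alone the difference passed (limma adjusted p = 0.00162). The centre of mass over fraction numbers gives the same course: 6.44 ± 0.224 (SD, n = 3 gradients) in GV oocytes, 7.07 ± 0.207 in MII oocytes, 6.50 ± 0.303 in zygotes, 4.17 ± 0.614 in 4-cell embryos and 3.58 ± 0.672 in blastocysts.

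Uhrf1 was divided about evenly between the sides until the 2-cell stage. The heavy side held 48.7% ± 3.49 (SD, n = 3) of its summed fraction CPM in GV oocytes, 46.0% ± 2.83 in MII oocytes, 56.2% ± 2.06 in zygotes and 48.4% ± 4.21 in 2-cell embryos. At the 4-cell stage its heavy means were 0.314, 1.81 and 33.6 CPM and its light means 146, 58.6 and 234. The sides did not overlap, the heavy share was 5.25% ± 6.47, and the difference was -4.66 ± 0.723 (limma adjusted p = 1.48e-05). That difference did not pass in the fit of the 4-cell stage alone (adjusted p = 0.223, limma). Fraction 5 held most of it in gradients A and C, at 508 and 906 CPM, but 5.35 CPM in gradient B, where fraction 3 had 254. From the 8-cell stage on the sides overlapped.

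Tet3 was called light at the 4-cell and 8-cell stages, and no change of its heavy minus light difference between consecutive stages was called. Its centre of mass was 6.36 ± 0.353 in GV oocytes, 6.19 ± 0.203 in MII oocytes, 5.61 ± 0.131 in zygotes, 4.67 ± 0.215 in 2-cell embryos and 4.06 ± 0.252 in 8-cell embryos. In 2-cell embryos its heavy means were 855, 826 and 821 CPM and its light means 1693, 1809 and 2142, with a peak in fraction 3 in all 3 gradients at 2634, 2971 and 3286 CPM. The sides were apart in 3 of 3 gradients, but the difference of -1.17 ± 0.682 did not pass (limma adjusted p = 0.257). In the fit of the 2-cell stage alone it did (adjusted p = 0.0228, limma). At the 8-cell stage the heavy means were 58.4, 7.69 and 13.5 CPM and the light means 648, 63.4 and 149. The lowest light mean was above the highest heavy mean, with a difference of -3.24 ± 0.682 (limma adjusted p = 0.000958). It was -3.17 without gradient C (adjusted p = 0.0824) and did not pass in the fit of the 8-cell stage alone (adjusted p = 0.104, limma).

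At the 4-cell stage Tet3 was called light, at -2.06 ± 0.682 (limma adjusted p = 0.032), on gradients that differed from each other. Its heavy and light means were 41.5 and 1362, 283 and 254, and 144 and 360 CPM in gradients A, B and C, so the sides overlapped and gradient B had no lighter side. Without gradient A the difference was -0.58 (limma adjusted p = 0.536), without gradient C -2.43 (adjusted p = 0.15), and in the fit of the stage alone the adjusted p was 0.319.

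Dppa3 was the member called heavy. In 2-cell embryos its heavy means were 1472, 1577 and 2037 CPM and its light means 215, 270 and 430. The sides were far apart in every gradient, and the difference was 2.52 ± 0.338 (limma adjusted p = 1.07e-06). The call held in all 11 alternatives, with adjusted p of at most 0.00911. Of its summed fraction CPM, 85.1% ± 2.34 (SD, n = 3) lay in fractions 6 to 10, against 58.3% ± 4.30 in GV oocytes, 60.3% ± 2.21 in MII oocytes, 63.7% ± 6.08 in zygotes and 65.3% ± 2.98 in 4-cell embryos. At the 4-cell stage the difference was 0.91 ± 0.338 (limma adjusted p = 0.0582), and edgeR called it, at 1.12 (adjusted p = 0.0253). At the 8-cell stage the heavy means were 3632, 7163 and 7548 CPM and the light means 1972, 2217 and 4533. The heavy side was higher in each gradient though the sides overlapped, with a difference of 1.10 ± 0.338 (limma adjusted p = 0.0307). This did not pass in 5 of 11 alternatives, among them without gradient B (0.81, limma adjusted p = 0.406) and without the libraries under 0.5 M reads (0.87, adjusted p = 0.17). In blastocysts the light side was higher in 3 of 3 gradients and the centre of mass was 5.10 ± 0.296, against 7.73 ± 0.131 at the 2-cell stage.

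The other 5 genes had no call of heavy against light. Dnmt3a was heavier in 3 of 3 gradients from GV oocytes to 2-cell embryos, with sides that did not overlap in zygotes (329, 294 and 323 against 136, 145 and 151 CPM, difference 1.12 ± 0.707, limma adjusted p = 0.573). In the fit of the zygotes alone that difference passed (limma adjusted p = 0.00349). Dnmt3l was heavier in 3 of 3 gradients in GV oocytes and lighter in 3 of 3 in zygotes, with separate sides and differences of 0.54 and -0.93 that were not called. It was also lighter in 3 of 3 in 2-cell embryos, at -0.48. Tet1 was lighter in 3 of 3 gradients in MII oocytes, 4-cell embryos and blastocysts, and Tet2 in morulae and blastocysts, again without a call. For Tet1 in 4-cell gradients A and C, 58.6% and 61.4% of the summed fraction CPM lay in fraction 1, in libraries of 0.141 and 0.282 M reads. For Tet2 in morula gradient C, 59.3% lay in fraction 1, in a library of 0.418 M reads. In 8-cell embryos Tet2 was heavier in 3 of 3 gradients, by 0.82, 1.94 and 0.85, also without a call. In edgeR, Tet2 passed as light in 4-cell embryos (adjusted p = 0.0236) on few reads outside gradient C. In gradients A, B and C the light side had 8, 1 and 984 reads and the heavy side 1, 11 and 6. Gradient B had no lighter side. Dnmt3b was lighter in 3 of 3 gradients in 2-cell embryos, morulae and blastocysts, with separate sides in blastocysts, at 16.1, 8.19 and 22.5 CPM against 25.9, 31.6 and 39.6. Dnmt3b was at 0 in 20, 26 and 22 of the 30 fraction libraries of the 2-cell, 4-cell and 8-cell stage, so its place in the gradient was not detectable there.

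**Figure D3:**
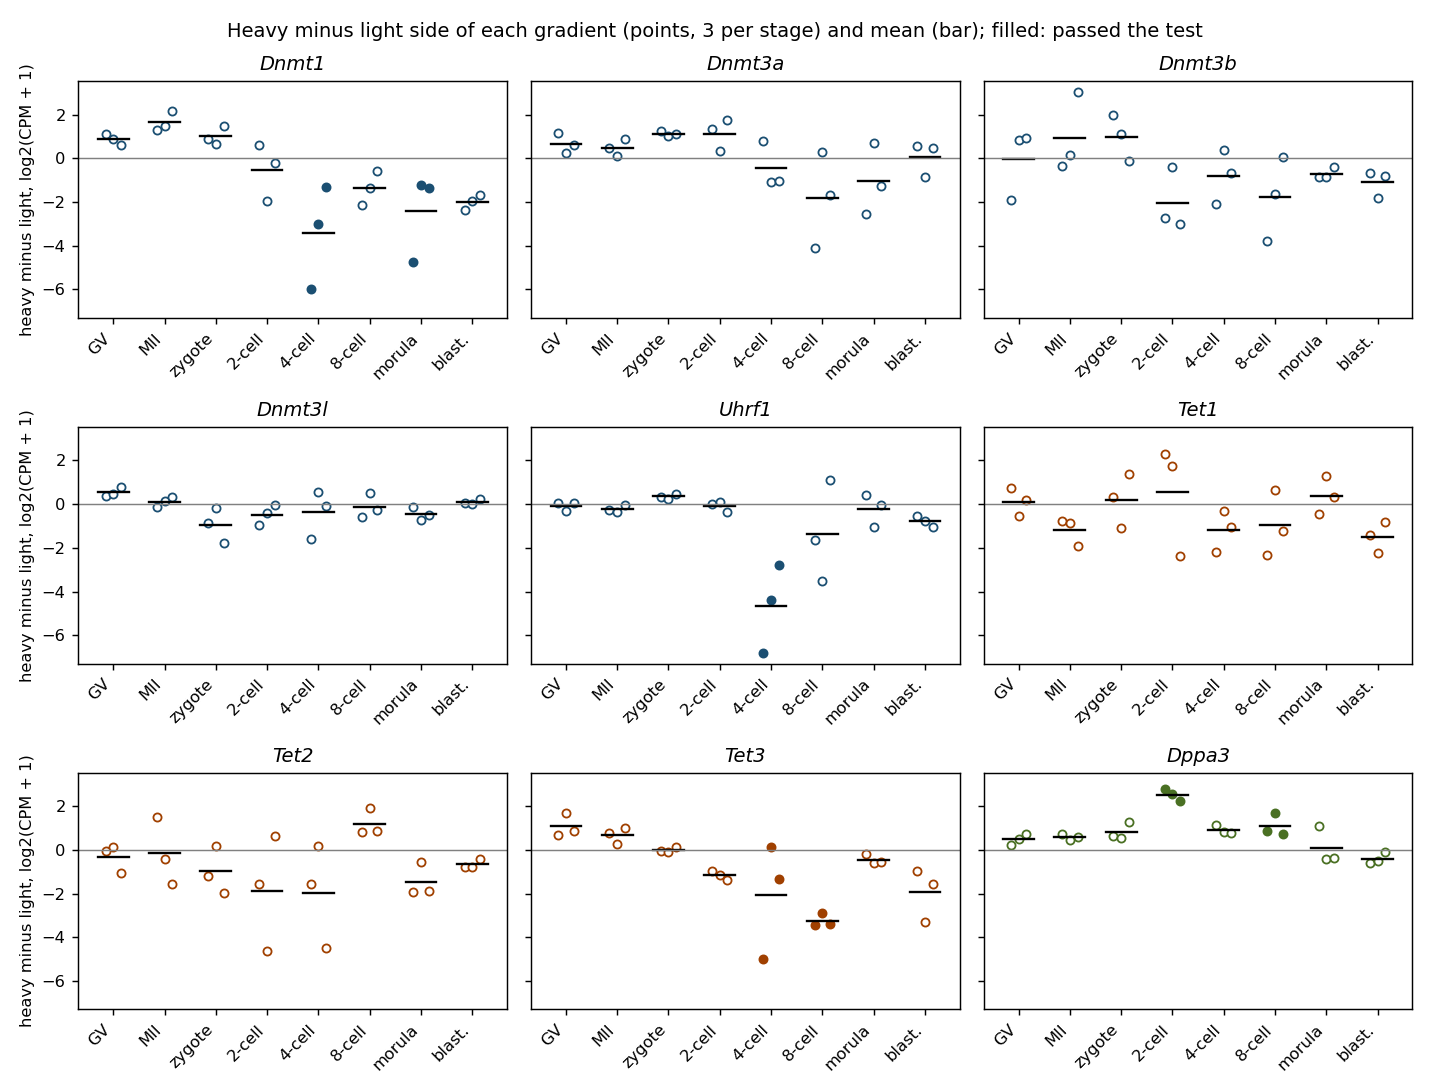
Heavy minus light side on the log2(CPM + 1) scale for the 9 genes (panels) at the 8 stages, 1 point per gradient and a bar for the mean of 3; filled points mark stages that passed the test. Dppa3 stands at 2.24 to 2.77 in the 3 gradients of 2-cell embryos, and all 3 gradients of 4-cell embryos lie below 0 for Dnmt1 and Uhrf1, between -6.81 and -1.32.

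Between consecutive stages, the level on the heavy side was tested in 1 limma fit over 24 gradients and 14524 genes. In 3 steps (GV to MII, MII to zygote, morula to blastocyst) limma called no member, with 3, 1 and 1 at an unadjusted p under 0.05. In edgeR Dppa3 passed from GV to MII (1.36, adjusted p = 0.0454) and no other member passed in these 3 steps. Fitted on the 2 stages alone, Dnmt3l (-1.71) and Dppa3 (1.19) passed from GV to MII and Dnmt1 (-1.18) from MII to zygote in limma. The share of all genes called in them was 4.06%, 1.49% and 0.0757%. From zygote to 2-cell 1 member fell (20.8% of genes called). With the gradient letter as a block Dnmt1 was called there too, at -2.001 (limma adjusted p = 0.0481, against 0.0575 without the block), as it was in 4 other alternatives. From 2-cell to 4-cell 3 fell (37.8%), from 4-cell to 8-cell 1 rose and 1 fell (6.54%), and from 8-cell to morula 1 rose and 1 fell (7.98%). The members' median from 2-cell to 4-cell was -1.11, against -0.06 over all genes. Of the 8 calls, 3 remained without gradients lettered B.

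The losses between the 2-cell and the 4-cell stage were those of Uhrf1, Dnmt3a and Tet3. Uhrf1 had 352, 520 and 267 CPM on the heavy side in 2-cell embryos, against the 0.314, 1.81 and 33.6 of 4-cell embryos, and fell by 6.19 ± 0.807 (limma adjusted p = 2.95e-06). Dnmt3a had 205, 88.9 and 340 CPM in 2-cell embryos and 35.3, 11.2 and 18.3 in 4-cell embryos, and fell by 3.18 ± 0.727 (limma adjusted p = 0.00145). Tet3 fell by 2.79 ± 0.631, from 855, 826 and 821 CPM to 41.5, 283 and 144 (limma adjusted p = 0.00131). For all 3 genes every 4-cell gradient was below every 2-cell gradient, and the calls held in all 11 alternatives, with adjusted p of at most 0.0151, 0.048 and 0.0379. In the transcriptomes of the same step, Uhrf1 and Tet3 also fell, whereas Dnmt3a had overlapping groups and a difference of 0.13 ± 0.18. The light side of Dnmt3a was lower too, with means of 84.5 CPM in 2-cell and 27.7 in 4-cell embryos. Its mean over all fractions was 148 CPM in 2-cell and 24.6 in 4-cell embryos. Its change of heavy minus light, -1.57 ± 1, was not called (limma adjusted p = 0.329).

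Dnmt1 on the heavy side fell by 3.84 ± 0.734 from 8-cell embryos, at 53.4, 96.3 and 82.8 CPM, to morulae, at 0.824, 8.94 and 7.28 (limma adjusted p = 0.00175). The gradients were separate, and without those lettered B the change was -4.12 (limma adjusted p = 0.0609). Tet3 fell by 2.62 ± 0.631 from 4-cell to 8-cell embryos (limma adjusted p = 0.0144), with overlapping gradients. It did not pass without gradients lettered B (-1.42, adjusted p = 0.378) or C (-2.27, adjusted p = 0.195), in edgeR (-2.29, adjusted p = 0.0626) or in the fit of both stages alone (adjusted p = 0.449).

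The remaining calls on the heavy side rest on few reads. Dnmt3b fell by 4.16 ± 0.854 from zygotes, at 46.1, 24.4 and 12.2 CPM, to 2-cell embryos, at 1.69, 0.0178 and 0 CPM, which stand for 110, 1 and 0 reads (limma adjusted p = 0.00135). Without gradients lettered B its adjusted p was 0.0558 and in edgeR 0.126. Dnmt3b rose by 2.78 ± 0.854 from 8-cell embryos, with 38, 0 and 5 reads, to morulae, with 527, 1562 and 2906 reads (limma adjusted p = 0.0487). With the gradient letter as a block the adjusted p was 0.0584. It was 0.341 and 0.332 without gradients lettered B and C, and 7 of 11 alternatives did not call it. Tet2 rose by 3.28 ± 0.904 from 4-cell embryos, with 1, 11 and 6 reads, to 8-cell embryos, with 1321, 1080 and 1757 (limma adjusted p = 0.0334). This did not pass in 5 of 11 alternatives, with adjusted p of 0.152 and 0.2 without gradients lettered A and B. Where a side has at most 3 reads the size of the change depends on the pseudocount and is no bound. Read counts without molecular identifiers cover counting error only.

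Whether a transcript moved along the gradient was tested as the change of the heavy minus light difference between stages. For GV to MII and MII to zygote, no member was called by limma or edgeR and none had an unadjusted p under 0.05 in limma, where 0.185% and 0.0198% of all genes were called. The differences for Tet3 were -0.37 ± 0.965 and -0.70 ± 0.965, and for Dnmt1 0.78 ± 0.854 and -0.64 ± 0.854. The later 5 steps were added after the values had been seen. From zygote to 2-cell Dppa3 moved heavier, by 1.70 ± 0.479 (limma adjusted p = 0.0315; 4.65% of genes called). The difference was 0.633, 0.566 and 1.27 in zygote gradients and 2.77, 2.54 and 2.24 in 2-cell gradients, with no overlap. From 2-cell to 4-cell Dppa3 moved back by -1.61 ± 0.479 (limma adjusted p = 0.0229), and Uhrf1 and Dnmt1 moved lighter, by -4.57 ± 1.02 and -2.91 ± 0.854 (limma adjusted p = 0.00252 and 0.0207; 11.7% of genes called).

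For Uhrf1 the 2-cell differences were 0.00840, 0.0813 and -0.37 and the 4-cell differences -6.81, -4.41 and -2.76, which did not overlap. For Dnmt1 they were 0.60, -1.96 and -0.21 against -5.97, -2.99 and -1.32, which did. None of these 4 calls held without gradients lettered A, where limma adjusted p were 0.136 (Dppa3, zygote to 2-cell), 0.058 (Dppa3, 2-cell to 4-cell), 0.112 (Uhrf1) and 0.382 (Dnmt1, at -1.08). Without those lettered B only Uhrf1 was called, and without those lettered C all but Dppa3 from 2-cell to 4-cell. In the last 3 steps no member was called by limma or edgeR, with 3, 3 and 0 at an unadjusted p under 0.05 in limma, beside 2.47%, 0.534% and 0.0198% of all genes. With the gradient as a block, Uhrf1 passed from 4-cell to 8-cell (3.31, adjusted p = 0.0395, limma).

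The mean over the 30 fraction libraries of a stage was set against the 4 transcriptomes as a description, without a test, since the 2 kinds differ in input and preparation. Tet3 stood out: in 2-cell, 4-cell and 8-cell embryos the gradient means were 1358 ± 110, 407 ± 255 and 157 ± 172 CPM (SD, n = 3), against 117, 10.9 and 8.2 in transcriptomes. On the log2(CPM + 1) scale these differences were 3.52, 5.11 and 4.10, above the 95th percentile of all genes at 3.19, 3.12 and 2.76. Uhrf1 and Dnmt1 in 4-cell embryos also exceeded it, at 3.55 and 3.23, as did Dnmt3l in zygotes, at 4.06 against 3.99. On the other side, Dppa3 in GV oocytes was 447 ± 62.3 CPM in gradients and 3443 in transcriptomes, a difference of -2.94 against a 5th percentile of -2.30. Dppa3 in zygotes (-2.82), Tet1 at the 8-cell stage (-3.81) and Dnmt3b at the 4-cell stage (-3.20) were below the 5th percentile too, at -2.68, -2.72 and -3.17. In blastocysts so were Tet1 (-3.08), Dnmt3a and Dnmt3b (both -2.93) and Tet2 (-2.90), against -2.75. The 8-cell gradient means of Tet3 were 353, 35.5 and 81.3 CPM, so the gradients differed widely among themselves. The 5 oocyte markers showed the same direction, at 38.7 to 58.4 CPM in 4-cell transcriptomes and 495 to 734 in 4-cell gradients, and their part in the difference was not tested.

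**Figure D4:**
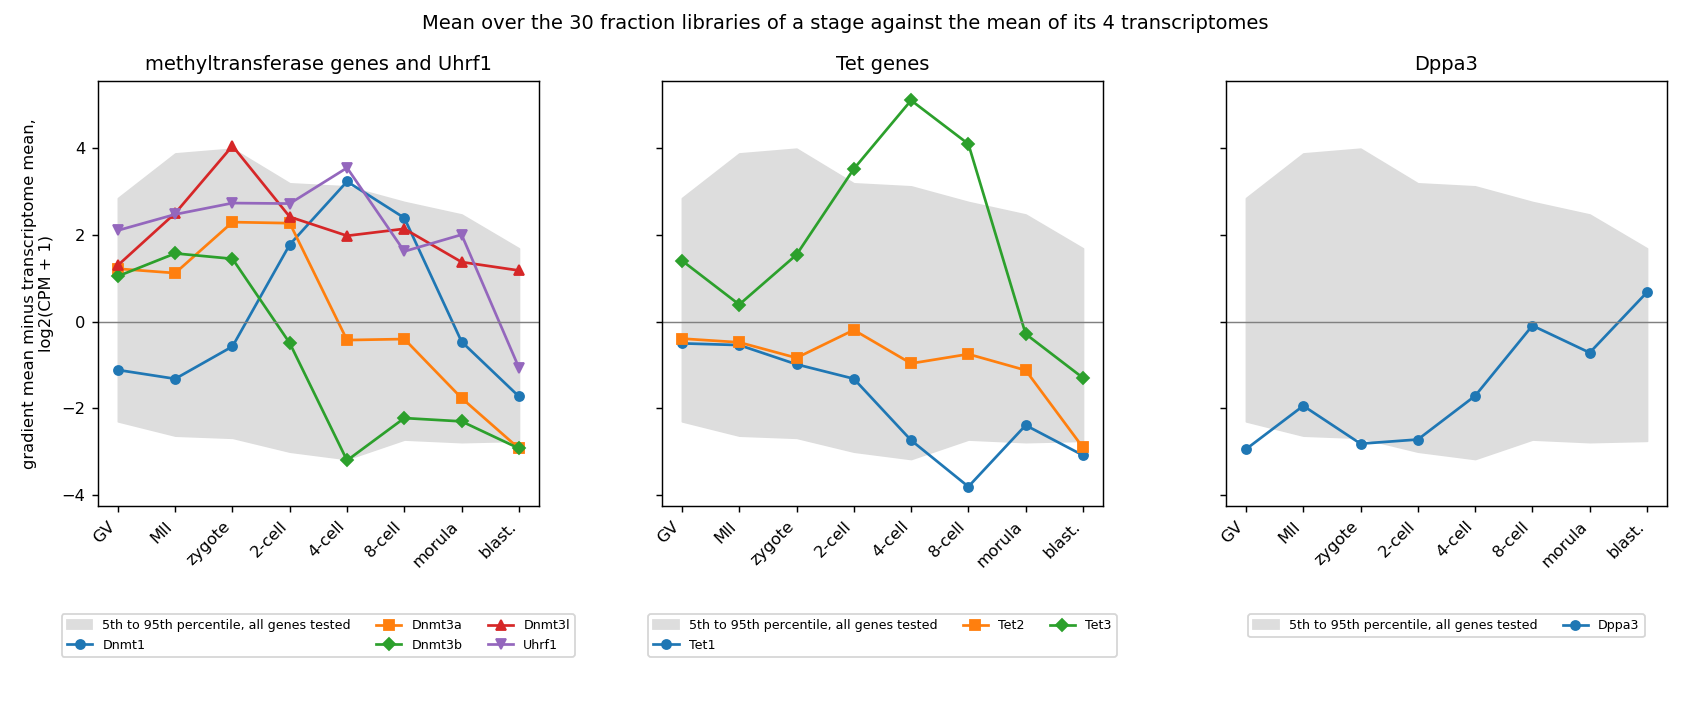
Mean over the fraction libraries minus mean of the transcriptomes, on the log2(CPM + 1) scale, at the 8 stages for the methyltransferase genes and Uhrf1, the Tet genes and Dppa3; grey marks the 5th to 95th percentile of 14642 genes. Tet3 leaves the grey band at the 2-cell, 4-cell and 8-cell stage, up to 5.11, and Tet1 lies under it at the 8-cell stage and, with Tet2, Dnmt3a and Dnmt3b, in blastocysts.

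Of 13 partners of the methylation machinery, 4 rose from GV to MII, where 34.5% of all genes were called (median 0.81, against -0.11 over all genes), led by Hells, a chromatin remodeller needed for DNA methylation, at 1.41 ± 0.156, and by the histone methyltransferase gene Ehmt1, at 1.20 ± 0.161 (limma adjusted p = 1.03e-09 and 5.74e-08). From MII to zygote 1 fell, Uhrf2 (10.3% of all genes called). From zygote to 2-cell 2 rose and 2 fell (33.9%), with Uhrf2, the paralogue of Uhrf1, going from 0.549 to 13.4 CPM. From 2-cell to 4-cell 5 rose and 3 fell, a share near the 64.8% of all genes. Ehmt2 went from 1.64 to 57.0 CPM and Cdca7l from 20.8 to 0.525. From 4-cell to 8-cell 1 fell, Uhrf2 (2.6% of all genes called), and from 8-cell to morula none was called (11.9%). From morula to blastocyst 1 rose, Ehmt2, and 1 fell, Setd2 (26.8%). In 2-cell gradients 4 of the 13 were called heavy and none light, where 18.2% of all genes were called (median 1.99, against -0.16 over all genes). Among the 4 was Setdb1, a histone methyltransferase that silences repeats, at 320 CPM on the heavy side and 39.0 on the light side. In 4-cell gradients 4 were called light and none heavy, where 16.3% of all genes were called (median -1.40, against -0.26). Setdb1 was at 0.196 CPM on the heavy and 17.6 on the light side there.

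Among the 15 genes of active demethylation and base excision repair that were tested, 1 rose and 5 fell in transcriptomes at maturation. Into the zygote 2 rose and 2 fell, into the 2-cell embryo 5 rose and 3 fell, and into the 4-cell embryo 6 rose and 4 fell. In the 3 later steps 0, 3 and 1 rose and 1, 0 and 2 fell. The shares of all genes called at the 7 steps were the 34.5%, 10.3%, 33.9%, 64.8%, 2.6%, 11.9% and 26.8% given above. At the 2-cell to 4-cell step the glycosylase gene Neil3 fell by 5.97 ± 0.246, from 175 to 1.95 CPM, and Parp1, which senses DNA breaks, rose by 4.39 ± 0.203, from 6.53 to 151 CPM (limma adjusted p = 5.9e-22 and 1.74e-20). Polb, the polymerase that fills repair gaps, fell by 2.39 ± 0.121 from GV to MII (limma adjusted p = 7.44e-19). In 2-cell gradients 3 of the 15 were called heavy and 3 light, where 18.2% of all genes were called.

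Of 6 of 7 listed genes for readers of methylated CpG (Zbtb4 was not analysed here), 3 rose from morula to blastocyst, where 26.8% of all genes were called (median 0.95, against 0.16 over all genes), among them Mbd2, from 4.05 to 19.5 CPM, and Mbd1, from 3.39 to 13.7. From GV to MII 1 fell, Mbd3, from 35.8 to 4.79 CPM (34.5% of all genes called). From zygote to 2-cell 2 rose (33.9%), from 2-cell to 4-cell 1 rose and 2 fell (64.8%), and from 8-cell to morula 2 rose (11.9%).

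Of 13 of 14 listed imprint protectors and Tet regulators (Cxxc4 was not analysed here), 6 rose and 3 fell from 2-cell to 4-cell, a share near the 64.8% of all genes called (median 0.77, against 0.02 over all genes). Zfp57, which guards imprints against demethylation, was 413 CPM in MII oocytes, 1314 in zygotes, 385 in 2-cell and 20.0 in 4-cell embryos. It rose by 1.60 ± 0.242 into the zygote and fell by 4.19 ± 0.242 into the 4-cell stage, while its corepressor gene Trim28 rose there by 3.84 ± 0.181, from 29.1 to 420 CPM (limma adjusted p = 3.23e-06, 1.12e-17 and 3.08e-20). Zfp57 was on the light side in 4-cell and 8-cell gradients, at -1.92 ± 0.443 and -2.49 ± 0.443 (limma adjusted p = 0.00213 and 0.000111), the 2 stages in which Tet3 was called light. Dppa4, which acts with Dppa2 at developmental promoters, was on the heavy side of 2-cell gradients, at 53.3 against 8.59 CPM (difference 2.54 ± 0.733, limma adjusted p = 0.0119). Dcaf1 was on the light side there, at -2.31 ± 0.724 (limma adjusted p = 0.021). Of the 13, 2 were called heavy and 1 light in 2-cell gradients (18.2% of all genes called). In 4-cell gradients 1 was called heavy and 2 light (16.3%), and in 8-cell gradients 1 light and none heavy (9.05%). In the other steps 2 rose and 2 fell from GV to MII (34.5% of all genes called) and 2 rose from MII to zygote (10.3%). Into the 2-cell stage 2 rose and 3 fell (33.9%), and from 4-cell to 8-cell none was called (2.6%). Into the morula 1 rose (11.9%), and into the blastocyst 1 rose and 1 fell (26.8%).

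Of 5 genes of methyl donor supply, 2 rose and 1 fell from 2-cell to 4-cell, a share near the 64.8% of all genes. Mat2a, which makes S-adenosylmethionine, rose by 3.61 ± 0.167, from 71.0 to 861 CPM, and Mat2b, which encodes its regulatory subunit, fell by 3.06 ± 0.146, from 2318 to 279 CPM (limma adjusted p = 1.59e-20 and 4.8e-20). Both fell from morula to blastocyst, where 2 other genes rose (26.8% of all genes called). In GV to MII 2 fell (34.5%), from zygote to 2-cell 2 rose (33.9%), and from 8-cell to morula 1 rose and 1 fell (11.9%).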

How the data were processed

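RNA of 32 transcriptome pools and 240 gradient fractions was sequenced with Smart-seq v4 and Nextera XT libraries and paired ends, per the labels' protocols. The authors deposited CPM per gene symbol for each library. Per the submitters' processing notes they used Trim Galore 0.6.7, FastQC, HISAT2 2.2.1, featureCounts 2.0.1, edgeR and GRCm39. The annotation and strand setting are not given in the sources used here. In 9 columns the deposited signal summed past what a CPM column can hold, but had the steps of CPM, and was used as CPM. Whole reads were recovered for 100% of values (tolerance 0.05 reads), which gave the depths.

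Of 15854 symbols, 159 in 76 groups were identical to another in every library and 15771 were kept. Among 288 replicate pairs the lowest chi-square per degree of freedom was 2.55, so no pair was treated as 1 library. Genes needed a CPM of at least 1 in as many libraries as the smallest group. Fits on log2(CPM + 1) used limma 3.58.1 in R 4.3.3 with Benjamini-Hochberg adjustment over all genes tested, and the scripts were tested on simulated data. Calls needed an adjusted p under 0.05 and a change of at least 1. On the recovered reads edgeR 4.0.16 called 6831, 2195, 5864, 10210, 577, 2290 and 4592 genes in the 7 transcriptome steps. DESeq2 1.42.0 was run on the transcriptomes. One 2-cell library (fraction 7, gradient B) was left out of the count models. Alternatives were another pseudocount, no filter, quantile normalization, only the groups compared, each letter left out, a replicate block, other fractions, and no library under 0.5 M reads.

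The members and gene lists were chosen with earlier results of these data known. The text names all 9 members, the 2 genes with the highest r for each, and at most 2 called genes per list and comparison with the largest change. Some genes that this rule or the lists name are not reported here. Heavy and light sides come from the same gradients: in all 8 stages each side correlated best with its own gradient (r of deviations 0.00776 to 0.253).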

Additional observations from a re-analysis of the deposited data

Results flagged for a closer look

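Of 72 groups of 4 transcriptomes (9 genes at 8 stages), 3 held a library far from the other 3 by Dixon's test at the 95% level. Chance alone marks about 5% of groups. In zygotes the highest Dnmt1 level was 377 CPM and the next 358, a small step beside a very narrow group. In 8-cell embryos the highest Dnmt1 level was 30.7 CPM and the next 24.5, and the highest Dnmt3b level was 22.3 CPM and the next 19.6.

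The heavy minus light difference of 3 genes differed between consecutive stages in limma's test of that change. The change of Dppa3 was 1.70 between zygote and 2-cell embryo and -1.61 between 2-cell and 4-cell embryo. At that last step the change of Uhrf1 was -4.57 and that of Dnmt1 -2.91. These comparisons were added after the values had been seen.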

How the results depend on the processing

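No call of a member reversed under any alternative. Of the 19 transcriptome calls, 17 to 19 held in each alternative that could test them all. Of the 8 calls on the heavy side, leaving out 1 gradient letter left 3 to 7 of them, with 3 to 10 member calls in all (3 without B, 10 without A). With only the groups compared, 2 of 7 heavy against light calls held and 7 others appeared: Dnmt1 in MII oocytes, zygotes and blastocysts, Dnmt3a in zygotes, Tet3 in 2-cell embryos and blastocysts, and Tet1 in blastocysts. The 4 calls on the change of that difference, added after seeing the data, became 0 with only the groups compared and 0 to 3 without 1 letter (0 without A, 1 without B, 3 without C).

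Over all genes, heavy against light calls with only the groups compared went from 11 to 285 in GV oocytes, 490 to 2204 in MII oocytes, 456 to 2092 in zygotes, 2758 to 188 in 2-cell, 2468 to 0 in 4-cell and 1373 to 252 in 8-cell embryos, 882 to 1610 in morulae and 416 to 2416 in blastocysts. Heavy-side calls went from 589 to 2588, 216 to 766, 3023 to 1904, 5495 to 2446, 950 to 0 and 11 to 134 in every step but 8-cell to morula. From 4-cell to 8-cell, 380 transcriptome calls became 577 in edgeR and 885 in DESeq2. From GV to MII, 26.4% of transcriptome calls were higher, against 55.6% after quantile normalization. The same shares were 74.3% and 46.4% into the 2-cell stage and 70.2% and 50.8% into the blastocyst. Quantile normalization moved the median of all genes into the 2-cell stage from 0.37 to -0.08.

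Letters did not pair most stages (correlations of same-letter deviations -0.178 to 0.169 in transcriptomes). Every library correlated best with its own letter in the 4-cell and 8-cell transcriptomes only (4 of 4, 0.0476 to 0.102). On the heavy side this held for morula and blastocyst only (3 of 3, 0.0578 to 0.0912). With the replicate block, 12 of 12 testable transcriptome calls, 7 of 8 heavy-side calls, 7 of 7 heavy against light calls and 4 of 4 added calls held. Few reads limit Dnmt3b on the heavy side at the 2-cell to 8-cell stages, and Tet2 at the 2-cell and 4-cell stages.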
